A study of Mus musculus with 6 samples.

Results

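The 49 genes described here carry out DNA replication and the S-phase steps around it, from licensing of origins to histone supply, and were chosen by name for those roles. All 59 non-control probes whose RefSeq accession on the array maps to one of the 49 symbols were taken, and the brightest probe stood for a gene. For 48 of the 49 genes at least 1 probe was well above background on all 3 arrays of a group in a channel, and these 48 were tested among 22535 genes. The exception was Tyms, the thymidylate synthase.

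The study measured RNA from mouse bone marrow haematopoietic stem cells on 6 Agilent arrays with 2 colours. Cy5 held RNA of Cdk6-/- stem cells, which lack the cyclin-dependent kinase 6 of the G1 phase. Cy3 held a pool of RNA from sorted wild-type stem cells. In 3 arrays both genotypes were untreated (U1 to U3), and in the other 3 both had received polyI:C (P1 to P3), a double-stranded RNA analogue that sets off an interferon response. The submitters call the samples biological replicates. All arrays of a treatment shared 1 wild-type pool, so the ratio leaves out the spread among wild-type animals, and dyes were never swapped, so dye and genotype cannot be told apart within a ratio. The strain, age and sex of the mice and the dose and time of polyI:C are not given in the sources used here, nor is it given whether an RNA came from 1 mouse.

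As background, CDK6 bound to a D-type cyclin phosphorylates RB, which frees E2F factors to switch on the genes of S phase. Origins are licensed in G1 when ORC, CDC6 and CDT1 load the MCM helicase, and they fire in S phase when CDC45 and GINS join it and the polymerases follow. Most haematopoietic stem cells rest outside the cycle, and interferon drives some of them into it.

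Every value below is a log2 ratio of Cdk6-/- over wild type after loess normalization, unless a Cy5 or Cy3 level is named. A value of -1 is a halving, and levels are log2 intensities that compare samples of a gene but not one gene with another. Across the arrays 47.0% to 76.5% of probes were well above background in Cy5, and 46 to 48 of the 48 members were. Arrays that share a scan time are called a slide here, and no other record of slides was used. P3 stood apart: it was alone in its scan time and had the highest share of probes above background. Its ratios correlated at 0.13 and 0.22 with P1 and P2, against 0.56 between those. The Xist ratio was -3.98 on U3 and -3.42 on P3 and 0.42 to 1.87 on the others. The Cdk6 probe was not well above background in the untreated samples and gave ratios of -0.26, -0.44 and -1.28 on the polyI:C arrays (mean -0.66, SE 0.24, limma adjusted p = 0.260), so it does not check the knockout. All 13 genes of the stem cell list, Cd48 and Flt3 included, were above background in Cy5 on every array. So were all 10 granulocyte and all 6 megakaryocyte markers, so this does not tell cell types apart. The stem cell list had a median ratio of 0.17 untreated and -0.09 after polyI:C, and a median change with polyI:C of -0.48 in Cdk6-/- cells.

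In untreated stem cells, 4 of the 48 genes differed between Cdk6-/- and wild type. Cdc45, Tk1 and Slbp were lower and Ung was higher (limma, adjusted p under 0.05 over all genes tested). Of all genes 9.83% were lower and 3.03% higher, so 3 lower and 1 higher of 48 is near the background. The median ratio of the members was -0.15, beside -0.05 over all genes, and 32 of 48 lay below 0. Below 0 on all 3 arrays were 17 members (28.2% of all genes), and above 0 on all 3 were 8 (20.9%). In RNA of a cell population, fewer cycling cells and less RNA per cell cannot be told apart.

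**Figure D1:**
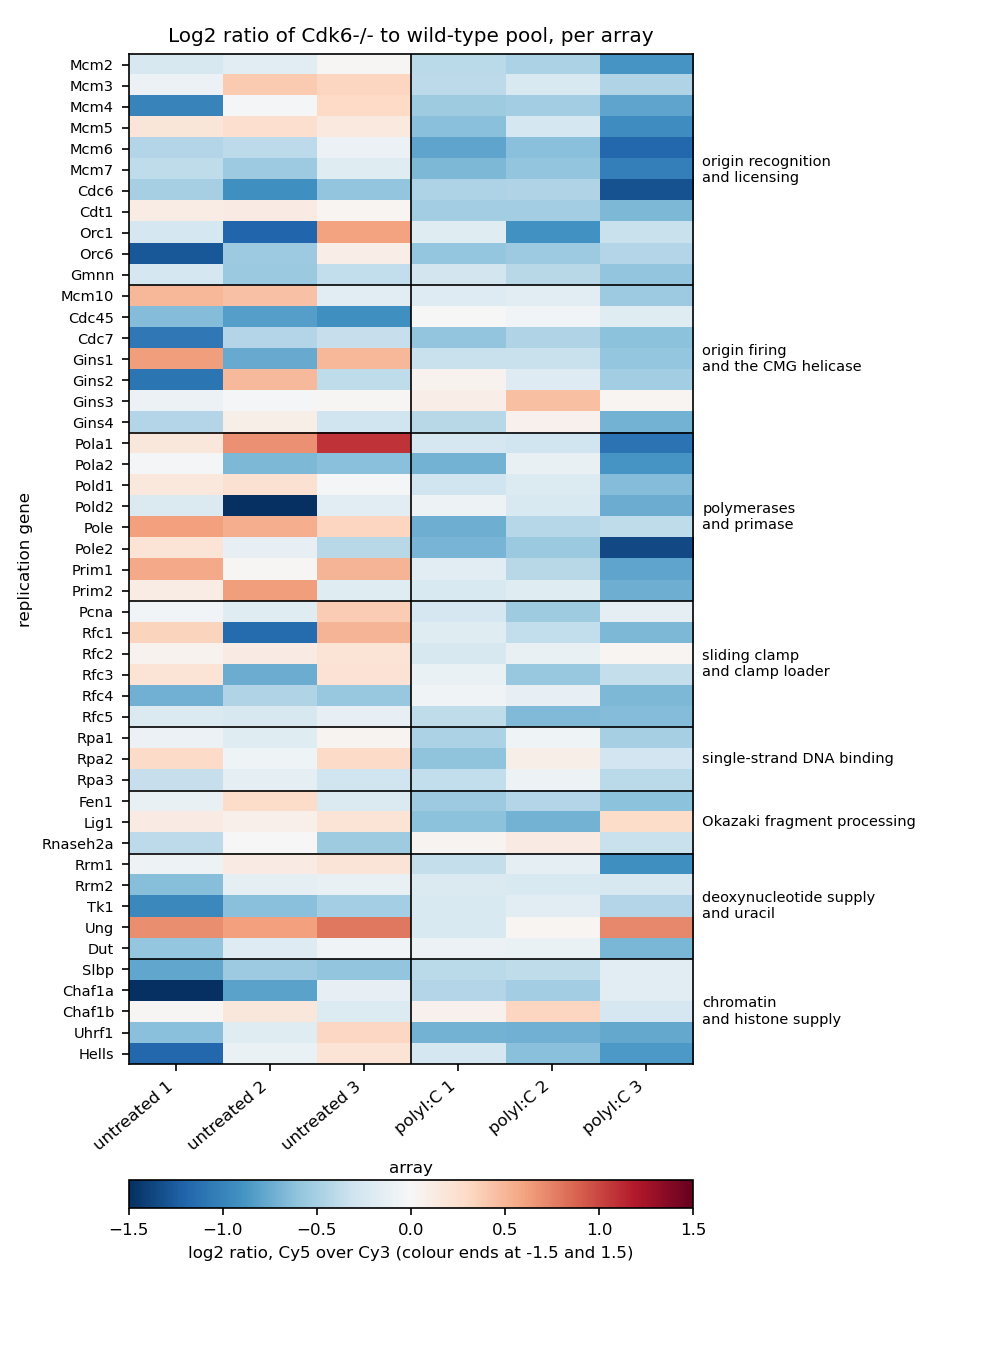
Log2 ratio of Cdk6-/- over wild type for the 48 tested genes (rows, grouped by role) on the 6 arrays (columns), after loess within each array. Colours end at -1.5 and 1.5; Chaf1a at -1.88 and Pold2 at -1.54 lie beyond. The untreated columns mix both colours, and the polyI:C columns are mostly on the lower side (45 of 48 means below 0).

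Cdc45 is the helicase partner that turns a licensed MCM ring into a moving fork. Its Cy5 level was 9.20, 9.11 and 9.00 in the untreated Cdk6-/- samples, and its Cy3 level was 9.86, 9.94 and 9.92 in the wild-type pool beside them. The ratios were -0.66, -0.83 and -0.92 (mean -0.80, SD 0.135, n = 3; SE 0.16, limma adjusted p = 0.0119). All 3 Cdk6-/- samples were thus lower than the pool. The polyI:C ratios of -0.01, -0.04 and -0.18 all lay above the untreated ones.

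Tk1 is the thymidine kinase that salvages thymidine for DNA synthesis. Its untreated ratios were -0.97, -0.63 and -0.51 (mean -0.70, SD 0.239, n = 3; SE 0.17, limma adjusted p = 0.0255). Its Cy5 levels of 11.52, 11.84 and 11.80 were below Cy3 levels of 12.50, 12.46 and 12.32 on each array. The groups again did not overlap, with -0.23, -0.16 and -0.43 after polyI:C.

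Slbp binds the stem-loop of replication-dependent histone mRNAs and is needed to process them. It gave -0.78, -0.54 and -0.60 untreated (mean -0.64, SD 0.127, n = 3; SE 0.16, limma adjusted p = 0.0306), from Cy5 levels of 11.56, 11.46 and 11.73 and Cy3 levels of at most 12.34. After polyI:C it gave -0.40, -0.38 and -0.16, all closer to 0. A second Slbp probe gave a smaller untreated mean of -0.16. After polyI:C that probe gave -0.63, -0.63 and -0.06, a mean of -0.44 that lay further from 0.

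Ung, the uracil-DNA glycosylase that removes uracil built into new DNA, went the other way. Its untreated ratios were 0.69, 0.62 and 0.80 (mean 0.70, SD 0.0877, n = 3; SE 0.20, limma adjusted p = 0.0472), with Cy5 at 16.85, 16.99 and 16.96 and Cy3 at 16.16, 16.37 and 16.17. All 3 samples were above the pool. After polyI:C the ratios of -0.23, 0.03 and 0.72 spread across 0 and overlapped the untreated ones. Their mean of 0.17 became 1.73 (adjusted p = 0.000176) with arrays centred on the median of all spots and 1.46 (adjusted p = 0.0044) with centring on bright probes, both called higher.

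The calls of these genes leaned on the processing. With each array centred on the median of all spots, in place of loess, the median of all genes moved from -0.05 to 0.30; Cdc45 gave -0.45 (adjusted p = 0.117) and Ung 2.09 (adjusted p = 3.08e-05), and none of the members called there was lower. With the authors' processed signals only Cdc45 passed. Cdc45 lost its call without U2 (adjusted p = 0.0508) or U3 (adjusted p = 0.0653), and Tk1, Slbp and Ung lost theirs without any one of U1, U2, U3 and P2, Slbp and Ung also without P1. Ung also lost its call with the slide as a random block (adjusted p = 0.0519) and with dim probes kept in (adjusted p = 0.0575). Without P3, 5 members were lower and 1 higher, where 10.6% and 4.41% of all genes were.

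**Figure D2:**
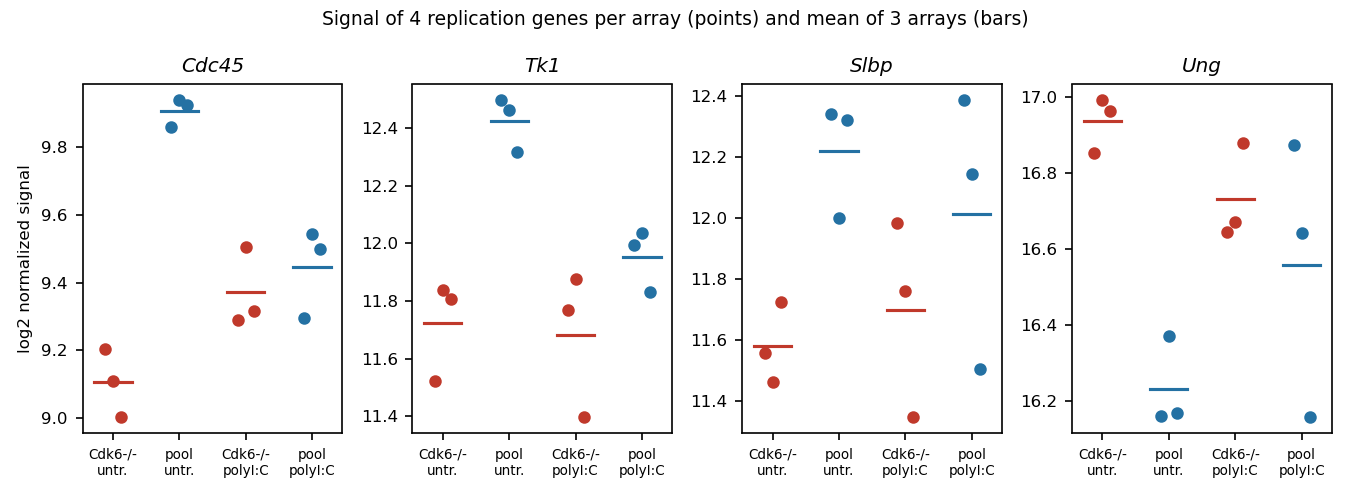
Log2 level of Cdc45, Tk1, Slbp and Ung in every sample, Cy5 (Cdk6-/-) beside Cy3 (wild-type pool), after normalization within and between arrays. On the 3 untreated arrays the Cdk6-/- level is below the pool for Cdc45, Tk1 and Slbp and above it for Ung; after polyI:C the gap is narrower on most arrays.

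The stretch before the start of the 4 called genes is printed from RefSeq promoters (GRCm38.p6), since these are the genes the untreated comparison picked out. Capitals mark a CCAAT box (CCAAT or its complement ATTGG), the site of NF-Y, a factor common at cell cycle promoters. The Tk1 and Ung stretches end where another RefSeq transcript of the gene begins. None holds an E2F site in the letters given further on. Of 41 members searched, the full site was in 11 and either form in 20, so lacking a site was common.
Cdc45, chr16:18811973-18812122, minus strand: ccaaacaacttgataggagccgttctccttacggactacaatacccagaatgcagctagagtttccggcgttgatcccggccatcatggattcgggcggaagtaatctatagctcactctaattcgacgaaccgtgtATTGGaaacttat
Tk1, chr11:117826088-117826164, minus strand: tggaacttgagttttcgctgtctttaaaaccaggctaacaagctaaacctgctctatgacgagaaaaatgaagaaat
Slbp, chr5:33652575-33652724, minus strand: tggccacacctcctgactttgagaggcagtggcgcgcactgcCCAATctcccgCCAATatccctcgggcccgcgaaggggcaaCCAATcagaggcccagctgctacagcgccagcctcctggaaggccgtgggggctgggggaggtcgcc
Ung, chr5:114130285-114130365, plus strand: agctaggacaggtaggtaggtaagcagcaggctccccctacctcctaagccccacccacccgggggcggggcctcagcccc

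Among the other untreated values, the licensing genes had a median of -0.28. Cdc6, the ATPase that loads MCM with ORC and CDT1, was the furthest from 0 with -0.50, -0.93 and -0.59 (mean -0.67, SE 0.21, limma adjusted p = 0.0629). All 3 samples were below the pool, but the mean missed the threshold. Orc1, a subunit of the origin recognition complex, was not well above background in any untreated Cdk6-/- sample and gave -0.27, -1.19 and 0.61. Orc6, another subunit, gave -1.27, -0.54 and 0.10, and Gmnn, the geminin that inhibits CDT1, -0.26, -0.56 and -0.37. Mcm7 (-0.38, -0.54, -0.18) and Mcm6 (-0.44, -0.40, -0.09), both helicase subunits, were below 0 on all 3 arrays. Mcm2, Mcm3, Mcm4, Mcm5 and Cdt1 had means of -0.13, 0.21, -0.25, 0.19 and 0.09.

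Among firing factors, Cdc7, the kinase that phosphorylates MCM at firing, gave -1.07, -0.44 and -0.34 (mean -0.62, adjusted p = 0.0575). Its 3 values were all below 0, while those of Mcm10, a fork factor, were 0.50, 0.44 and -0.17. The GINS subunits were uneven: Gins1 gave 0.63, -0.76 and 0.49, Gins2 -1.10, 0.48 and -0.38, and Gins3 and Gins4 had means of -0.03 and -0.22.

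The polymerase genes had a median on the other side of 0, at 0.16, with 5 of 8 above 0 and 3 below. Pola1, the catalytic subunit of polymerase alpha, which extends the primer, gave 0.17, 0.69 and 1.09 (mean 0.65, SE 0.23, limma adjusted p = 0.0954). Pole, the catalytic subunit of the leading strand polymerase epsilon, gave 0.61, 0.54 and 0.32 (mean 0.49, SE 0.17, limma adjusted p = 0.0849), and its second probe a mean of -0.02. Both genes were above 0 on all 3 arrays without passing the test. Pold2, a subunit of polymerase delta, rested on 1 sample in its mean of -0.64, with -0.22, -1.54 and -0.16. The means of Pola2, Pold1, Pole2, Prim1 and Prim2 were -0.44, 0.13, -0.11, 0.37 and 0.19; Prim1 and Prim2 form the primase.

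Of the clamp and its loader, Rfc4 lay lowest with -0.72, -0.45 and -0.56 (mean -0.58, SE 0.18, limma adjusted p = 0.066). A second Rfc4 probe crossed 0, with -1.30, 0.60 and -0.53. Pcna, the sliding clamp, gave -0.04, -0.18 and 0.38, and the loader genes Rfc1, Rfc2, Rfc3 and Rfc5 had means of -0.10, 0.13, -0.11 and -0.19. Of replication protein A, which coats single-stranded DNA, Rpa3 had the mean furthest from 0 (-0.26, SE 0.17, limma adjusted p = 0.344), beside -0.08 for Rpa1 and 0.18 for Rpa2. These values span both sides of 0 within a complex.

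Okazaki fragments are finished by Rnaseh2a, which removes RNA, the flap nuclease Fen1 and the ligase Lig1. Rnaseh2a had -0.40, -0.00 and -0.53 (mean -0.31, SE 0.18, limma adjusted p = 0.302), while its 4 probes ranged from -0.70 to 0.30. Fen1 and Lig1 had means of -0.02 and 0.13. In nucleotide supply, the ribonucleotide reductase genes Rrm1 and Rrm2 had means of 0.08 and -0.30, and Dut, which removes dUTP, -0.27. Tyms, which makes dTMP, gave 0.85, 0.59 and 0.60 from a dim probe, well above background in Cy5 on 2 of the 6 arrays and in Cy3 on 1, and was left out by the filter; in a fit with all dim probes it was higher untreated (0.68, limma adjusted p = 0.0338). For chromatin, Chaf1a, the large subunit of the histone chaperone CAF-1, gave -1.88, -0.80 and -0.12 (mean -0.93, SE 0.28, limma adjusted p = 0.0548). The 3 samples were far apart, and the mean passed without U3 (-1.34, adjusted p = 0.0296). Chaf1b, its partner, had a mean of -0.00, and Uhrf1 and Hells, which maintain DNA methylation, had -0.16 and -0.36.

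After polyI:C, nearly all replication genes had ratios of Cdk6-/- over wild type below 0, by small amounts, and no single gene passed the test. The members had a median ratio of -0.38, beside -0.02 over all genes, and 45 of 48 means lay below 0. Below 0 on all 3 arrays were 39 of 48, where 21.6% of all genes were, and above 0 on all 3 was only Gins3, where 16.5% of all genes were. With limma 0 members were called in either direction, and 0.626% of all genes were called lower and 0.32% higher. An unadjusted p under 0.05 was held by 20 of 48 members and by 3013 of all 22535 genes. The smallest adjusted p among members was 0.0595.

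**Figure D3:**
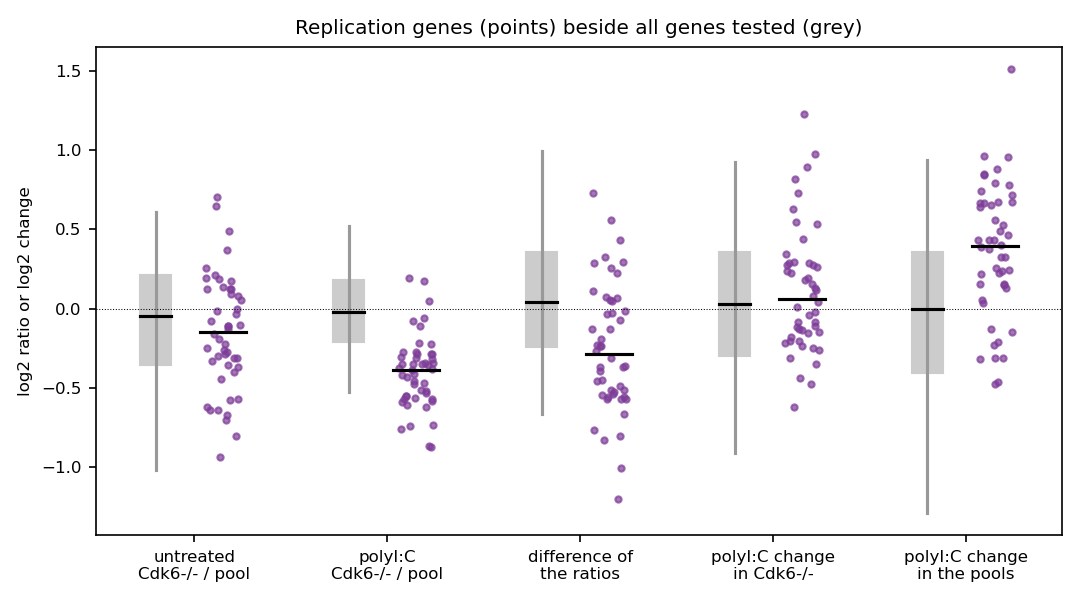
Distribution of log2 ratios of the 48 tested replication genes beside that of all 22535 genes, by treatment. Untreated, the member median is -0.15 beside -0.05; after polyI:C it is -0.38 beside -0.02.

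The shift was present on each array: the median member ratio was -0.34, -0.32 and -0.60 on P1 to P3, with 44, 42 and 44 of 48 below 0. Untreated it was -0.16, -0.14 and -0.03, with 31, 31 and 25 below 0. All 3 polyI:C medians were lower than all 3 untreated ones, and P3 was the lowest. Without P3 the polyI:C median was -0.32. With each array centred on the median of all spots, the member median was -0.05 where that of all genes was 0.21, and 39 of 48 lay below that median of all genes; the direction against 0 thus rests on the normalization for many of the genes, while the position below all genes was kept.

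Of the 8 roles, licensing genes had the lowest median, with a value of -0.59 and 11 of 11 below 0. Mcm6, a subunit of the helicase ring, gave -0.79, -0.62 and -1.18 (mean -0.86, SE 0.18, limma adjusted p = 0.0595). Its Cy5 levels were 13.37, 13.50 and 12.69 and its Cy3 levels 14.16, 14.12 and 13.87, so each Cdk6-/- sample was below the pool. Mcm7 gave -0.67, -0.59 and -1.02 (mean -0.76, limma adjusted p = 0.0854). The other 4 ring subunits did the same on every array: Mcm2 (-0.41, -0.47, -0.89), Mcm3 (-0.39, -0.23, -0.45), Mcm4 (-0.53, -0.52, -0.79) and Mcm5 (-0.63, -0.26, -0.93). Of the loaders, Cdt1 gave -0.52, -0.52 and -0.67 (mean -0.57, SD 0.0866, n = 3), and Cdc6 -0.46, -0.45 and -1.31. A second Cdc6 probe crossed 0, with 0.32, -0.89 and -0.74. Orc6 gave the even values -0.58, -0.54 and -0.44, and Gmnn had a mean of -0.43. Orc1, at -0.47, was well above background on all 3 polyI:C arrays in the pool but on 1 of 3 in Cdk6-/-, and entered the test through the channel where it was higher; without it the licensing median was -0.60 with 10 of 10 below 0, and 38 of 47 members were below 0 on all 3 arrays. None of these genes passed the threshold.

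Firing factors had a median of -0.30 with 6 of 7 below 0, and of -0.17 without P3. Cdc7 gave -0.59, -0.45 and -0.62 (mean -0.55, SE 0.19, limma adjusted p = 0.233), and its second probe 0.004, -0.73 and -0.78. Gins1 was below 0 on each array (-0.33, -0.34, -0.58), but Gins2 (0.06, -0.19, -0.52) and Gins4 (-0.41, 0.07, -0.71) crossed 0 and Gins3 was above it (0.10, 0.46, 0.03). The 4 GINS subunits thus lay on both sides of 0. Mcm10 had a mean of -0.30, and Cdc45 of -0.08.

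All 8 polymerase genes lay below 0, with a median of -0.49, or -0.28 without P3. Pole2, a subunit of polymerase epsilon, gave -0.70, -0.56 and -1.36 (mean -0.87, SE 0.21, limma adjusted p = 0.0944), with Cy5 at 9.76, 9.76 and 8.27 against Cy3 at 10.46, 10.32 and 9.62. Pola1 gave -0.25, -0.30 and -1.11, and Pole -0.74, -0.42 and -0.38. In all 3 genes each Cdk6-/- sample was below the pool, with P3 lowest for Pole2 and Pola1 but not for Pole. Pola2, Pold1, Pold2, Prim1 and Prim2 had means of -0.57, -0.39, -0.35, -0.46 and -0.38, each below 0 on all 3 arrays.

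For the clamp and loader 6 of 6 lay below 0, with a median of -0.33. Rfc5 gave -0.38, -0.66 and -0.65 (mean -0.56, SE 0.16, limma adjusted p = 0.164), and Pcna -0.25, -0.53 and -0.14. The loader genes Rfc1, Rfc2, Rfc3 and Rfc4 had means of -0.41, -0.11, -0.34 and -0.28. All 3 RPA genes were below 0 in the mean; Rpa1 gave -0.47, -0.06 and -0.50 (mean -0.34, SE 0.17, limma adjusted p = 0.43), beside means of -0.27 for Rpa2 and -0.28 for Rpa3. P2 was the array nearest 0 for all 3 RPA genes.

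Fen1 led the Okazaki genes with -0.54, -0.43 and -0.61 (mean -0.53, SE 0.17, limma adjusted p = 0.213). Lig1 was split, with -0.61, -0.71 and 0.27, and Rnaseh2a was near 0, with 0.04, 0.12 and -0.33. In nucleotide supply Rrm1 gave -0.35, -0.13 and -0.92 (mean -0.47, SE 0.19, limma adjusted p = 0.325), and Rrm2 the even values -0.21, -0.22 and -0.24. Dut had a mean of -0.29 and the dim Tyms -0.23. Of the chromatin genes, Uhrf1 gave -0.71, -0.72 and -0.77 (mean -0.73, SD 0.0321, n = 3; SE 0.20, limma adjusted p = 0.134). On this probe the 3 samples were nearly equal, whereas untreated they were -0.62, -0.18 and 0.31. A second Uhrf1 probe was less even after polyI:C, with -0.67, -0.08 and -0.50, and gave 0.28, 0.12 and 0.32 untreated. Hells and Chaf1a had means of -0.58 and -0.37, and Chaf1b 0.05.

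Against the median of all genes, 7 of the 8 role groups were lower under each scaling and without P3. Licensing genes were 0.57 below it with loess, 0.32 below with centring on all spots, 0.56 below with processed signals and 0.48 below without P3, and for polymerases the same values were 0.47, 0.40, 0.49 and 0.24. The Okazaki genes were the exception, 0.33 below with loess and 0.02 above with centring. Against 0, the firing, clamp, RPA, Okazaki and nucleotide medians turned from negative to 0.02, 0.01, 0.12, 0.23 and 0.18 with that centring.

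**Figure D4:**
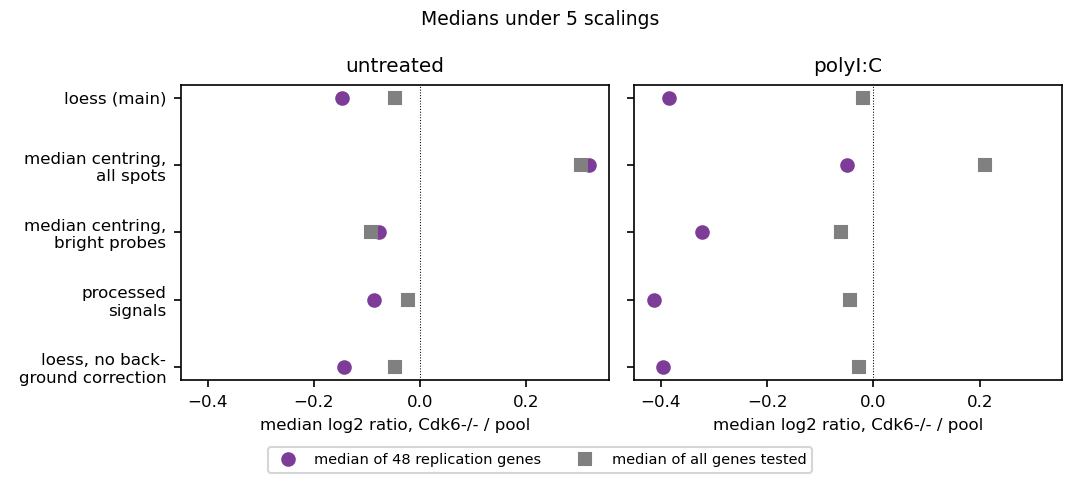
Median log2 ratio of the replication genes and of all genes under each way of scaling the arrays. With centring on all spots the member median after polyI:C moves from -0.38 to -0.05 and that of all genes from -0.02 to 0.21, so the members stay below all genes; untreated, the members are at 0.32 beside 0.30.

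Other lists also differed between genotypes after polyI:C, some lower and some higher in Cdk6-/-. All 10 erythroid markers had mean ratios below 0 after polyI:C, with a median of -1.002. With limma 3 of 10 were lower, where 0.626% of all genes were. Their summed log2 Cy5 level ranged from 16.5 to 16.8 in untreated samples and from 14.1 to 16.1 in treated ones. In the Cy3 pools it was 16.2 to 16.9 and 15.3 to 16.5, and 9 or 10 of the 10 were well above background in Cy5 on every array. On P2 the erythroid sum was higher in Cy5 (16.1) than in Cy3 (15.3), and 7 of the 10 ratios were below 0. The median erythroid ratio was -1.47, -0.27 and -1.32 on P1 to P3, and the member median was -0.34, -0.32 and -0.60. The 10 granulocyte markers had a median of 0.80 after polyI:C (0 called with limma, all above 0) and -0.76 untreated, and their summed Cy5 level ranged from 17.4 to 18.1 in untreated samples and from 17.5 to 17.9 in treated ones. In the Cy3 pools that sum was 18.4 to 18.9 untreated and 16.5 to 16.9 after polyI:C. The 8 macrophage markers had a median of 0.72 after polyI:C and of -0.41 untreated. After polyI:C 7 were above 0 and 1 was higher with limma, where 0.32% of all genes were. Their summed Cy5 level was 14.1 to 14.4 and 13.6 to 14.4 in the same order, and the Cy3 sum 14.5 to 14.6 and 13.7 to 13.9. The part of any of these lists in the replication values was not tested.

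The difference between treatments was tested directly, as the polyI:C ratio minus the untreated ratio. Both terms come from the comparisons above, so it adds the test of the change and no new samples. The members had a median difference of -0.29, beside 0.04 over all genes, with 35 of 48 below 0. With limma 0 members were called, and 0.204% of all genes were called lower and 1.6% higher. An unadjusted p under 0.05 was held by 8 of 48 members and by 3729 of all 22535 genes, so 8 is near the background. Every polyI:C ratio lay below every untreated ratio for 16 members, where 8.48% of all genes did so, and above for 4 (Cdc45, Gins3, Slbp and Tk1), where 14.3% did. The second Slbp probe did not share this, with a difference of -0.28.

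The 16 genes were Cdt1, Fen1, Mcm2, Mcm3, Mcm5, Mcm6, Mcm7, Pola1, Pold1, Pole, Pole2, Prim1, Rfc2, Rfc5, Rrm1 and Uhrf1, which are 5 of the 6 MCM ring genes and 5 of the 8 polymerase genes. For 5 of them, Cdt1, Mcm5, Pola1, Pole and Prim1, all 3 untreated ratios were above 0 and all 3 polyI:C ratios below it, where 2.41% of all genes were so placed. Pole had the smallest adjusted p: the ratio went from 0.61, 0.54 and 0.32 to -0.74, -0.42 and -0.38, a difference of -1.005 (SE 0.24, limma adjusted p = 0.0654). Its Cy5 level stood at 11.19, 10.81 and 10.65 without treatment and at 9.97, 10.39 and 10.43 with it, while Cy3 was 10.57, 10.27 and 10.33 and then 10.71, 10.81 and 10.81. The Cdk6-/- levels were thus lower after treatment and the pool levels higher. With the slide as a random block Pole passed (difference -1.02, adjusted p = 0.0493), and with it as a fixed block 0 members and 0 of all genes did. A second Pole probe gave -0.0047, -0.15 and 0.099 untreated and a difference of -0.57, so it was not above 0 on every untreated array.

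Pola1 had the greatest difference, -1.20 (SE 0.33, limma adjusted p = 0.0961). Its Cy3 levels of 9.23, 9.45 and 9.40 untreated and 10.75, 10.68 and 9.54 after polyI:C were apart, and its Cy5 levels of 9.40, 10.14 and 10.48 and 10.51, 10.38 and 8.42 overlapped, with P3 lowest. Mcm5 led the licensing genes, from 0.18, 0.25 and 0.14 to -0.63, -0.26 and -0.93 (difference -0.80, SE 0.25, limma adjusted p = 0.143). Prim1 went from 0.57, 0.02 and 0.51 to -0.17, -0.41 and -0.79 (difference -0.83, limma adjusted p = 0.159). Neither gene's groups overlapped.

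In the opposite direction Cdc45 had the greatest difference, 0.73 (SE 0.23, limma adjusted p = 0.143), followed by Chaf1a at 0.56 and Tk1 at 0.43. The largest differences of the remaining roles were -0.37 for Rfc5 (SE 0.23, limma adjusted p = 0.474), -0.45 for Rpa2 (SE 0.27, limma adjusted p = 0.445), -0.51 for Fen1 (SE 0.24, limma adjusted p = 0.33), -0.55 for Rrm1 (SE 0.27, limma adjusted p = 0.35) and -0.57 for Uhrf1 (SE 0.28, limma adjusted p = 0.344). By role, the median difference was -0.66 for polymerases and -0.39 for licensing genes, and 0.07 for firing factors. On slide 1, which held U1, U3 and P1, the member median was -0.33, on slide 2, which held U2 and P2, it was -0.06, and with the slide as a fixed block it was -0.22.

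The levels show how each genotype differed between treatments. From the untreated to the polyI:C pool, 39 of 48 members were higher in wild type, where 49.8% of all genes were, with a median of 0.39 beside -0.003. Only Gins1 was over 2-fold higher (1.51), where 4.18% of all genes were, and 0 members were over 2-fold lower, where 8.11% were; each pool is 1 sample, so these have no test. Most lists of cell type markers differed more between the same pools: the median change was -1.83 for granulocyte, -1.94 for macrophage, -2.63 for B cell and -2.78 for stroma markers, 1.18 for T and NK cell and 1.28 for megakaryocyte markers, and -0.38 for erythroid ones. The part of these cells in the pool values of the replication genes was not tested. In Cdk6-/- cells the median change was 0.06, beside 0.03 over all genes. With limma 0 members were called, and 0.0577% of all genes were called lower and 0.107% higher. An unadjusted p under 0.05 was held by 3 of 48 members and by 2320 of all 22535 genes.

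The Cdk6-/- value turned on P3. Without it the member median was 0.31, beside -0.006 for all genes, with 6 of 48 below that, and the wild-type median was 0.52. Within slide 1 and slide 2 the Cdk6-/- medians were 0.28 and 0.26. The median Cy5 level of the members stood at 10.91, 10.97 and 10.86 on U1 to U3 and at 11.26, 11.24 and 10.46 on P1 to P3, and the Cy3 level was 11.01, 10.96 and 10.92 and then 11.63, 11.51 and 11.23. P1 and P2 thus lay above the untreated Cdk6-/- samples and P3 below them, while all 3 readings of the treated pool were above those of the untreated one.

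**Figure D5:**
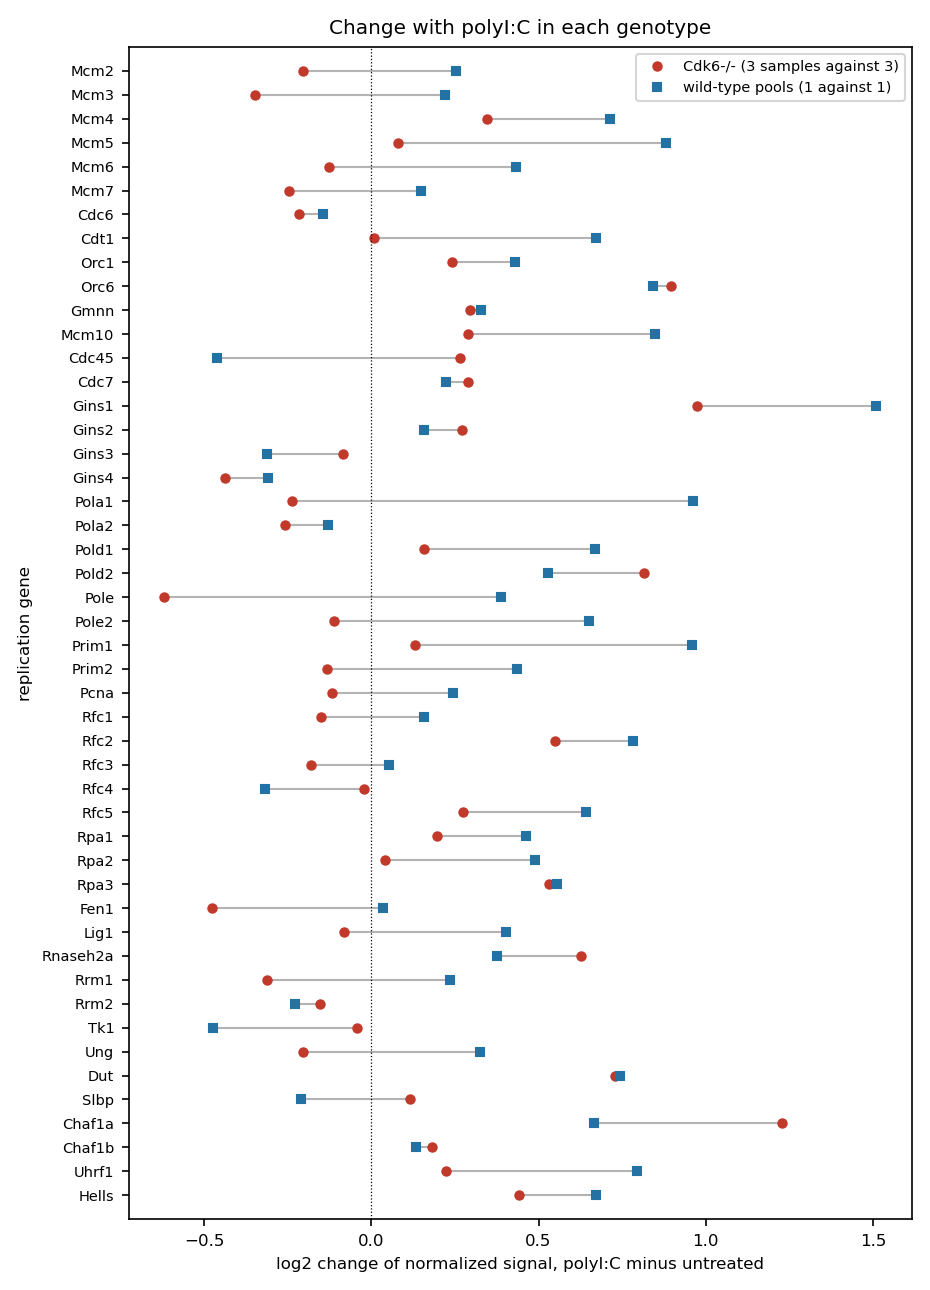
Change of the log2 level from untreated to polyI:C for each tested member, in wild-type pools (Cy3, 1 pool a treatment) and in Cdk6-/- samples (Cy5, mean of 3 against 3). The wild-type change is above 0 for 39 of 48 genes and the Cdk6-/- change lies below it for 35 of 48.

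For 8 members every treated Cdk6-/- level was above every untreated one (9.19% of all genes): Cdc45, Dut, Gins1, Orc6, Rfc2, Rfc5, Rnaseh2a and Rpa3. The reverse held for Pole alone (7.8% of all genes). Orc6 had Cy5 levels of 9.60, 10.25 and 10.87 untreated and 11.17, 11.13 and 11.10 after polyI:C (change 0.90, SE 0.38, limma adjusted p = 0.456), beside 0.84 in the pools. Gins1, needed to build the GINS complex, had 10.20, 8.78 and 10.03 and then 10.43, 10.80 and 10.70 (change 0.97, SE 0.42, limma adjusted p = 0.472). In both genes the 2 genotypes lay higher after treatment, though the Cdk6-/- change did not pass.

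Chaf1a had the largest Cdk6-/- change, 1.23 (SE 0.51, limma adjusted p = 0.445), with 7.61, 8.86 and 9.64 untreated and 9.64, 9.78 and 10.37 after, so that U1 and U2 set most of it. Dut had 8.87, 9.66 and 9.54 and then 10.41, 9.87 and 9.99 (change 0.73, SE 0.35, limma adjusted p = 0.525). Pold2 gave 10.75, 10.16 and 11.40 and then 11.63, 11.87 and 11.25 (change 0.82, SE 0.39, limma adjusted p = 0.533). Groups were apart for Dut and overlapped for Pold2. Smaller changes led the other roles: 0.55 for Rfc2 (limma adjusted p = 0.638), 0.53 for Rpa3 (limma adjusted p = 0.629) and 0.63 for Rnaseh2a (limma adjusted p = 0.576).

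Since many members lay lower together after polyI:C, their promoters were read for E2F sites. RefSeq (GRCm38.p6) gave 250 bases before to 50 after the start for 41 of the 49 genes; Gins1, Gins2, Gins4, Gmnn, Mcm4, Pole, Prim2 and Rfc2 were not matched. The full E2F site was searched as TTTCGCGC or TTTGGCGC on either strand, and held by 11 of the 41 genes (26.83%), against 0.9288% of 27025 genes. A shorter core, GGCGGGAA or GCGGGAAA, whose letters can overlap each other, was in 13 (31.71%, against 3.145%), and either form in 20 (48.78%, against 4%). The CCAAT box was in 25 (60.98%, against 41.06%). The CHR element of mitotic genes, TTTGAA or TTCGAA, was in 8 (19.51%, against 21.66%). A match is letters only and shows no binding.

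The windows around the full sites are shown because 10 of these 11 genes were below 0 on all 3 polyI:C arrays. So were 39 of all 48 tested members, and 16 of the 20 without either form of the site. The 10 and the 39 include Orc1, which entered the test through the channel where it was higher. The windows were chosen after the values were seen. Capitals mark the letters of the full site only, and where the forward and reverse words overlap both are in capitals. A short core, such as the one in the Rfc3 window, stays in lower case.
Mcm3, chr1:20820263-20820285, minus strand: acttgggaagtTTTGGCGCcaag
Mcm5, chr8:75109347-75109376, plus strand: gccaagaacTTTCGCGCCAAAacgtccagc
Mcm6, chr1:128359795-128359824, minus strand: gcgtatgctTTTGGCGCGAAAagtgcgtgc
Mcm6, chr1:128359734-128359763, minus strand: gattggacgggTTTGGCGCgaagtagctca
Mcm7, chr5:138171849-138171878, minus strand: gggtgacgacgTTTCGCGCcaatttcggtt
Cdt1, chr8:122568036-122568064, plus strand: ggaactaccttTTTGGCGCcatggcgcaa
Orc1, chr4:108579416-108579445, plus strand: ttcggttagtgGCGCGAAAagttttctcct
Pola1, chrX:93632275-93632304, minus strand: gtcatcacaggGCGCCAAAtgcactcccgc
Pole2, chr12:69228162-69228191, minus strand: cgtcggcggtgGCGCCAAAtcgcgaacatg
Rfc3, chr5:151651200-151651229, minus strand: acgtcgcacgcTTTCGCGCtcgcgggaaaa
Lig1, chr7:13278841-13278870, plus strand: cgccaaagtgcGCGCGAAAtctgtgtggcg
Uhrf1, chr17:56304117-56304146, plus strand: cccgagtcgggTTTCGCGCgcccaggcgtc
Of the 11 genes, 6 act in licensing, and Lig1, with its single value of 0.27 on P3, is the one not below 0 throughout.

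Among tested members, the 20 with either form of the E2F site had a median polyI:C ratio of -0.51 and the 20 without had -0.31, and 18 and 16 of them were below 0 on all 3 arrays. The 20 with a site and the 18 include Orc1, which was tested only through the channel where it was higher. The median differences between treatments were -0.50 and -0.08, and the untreated medians -0.11 and -0.23. Without P3 the differences were -0.35 and 0.02, and with centring on all spots the untreated medians turned to 0.42 and 0.23 (0.30 for all genes) and the polyI:C medians to -0.11 and 0.08 (0.21 for all genes). Below the median of all genes after polyI:C, the genes with a site lay by 0.49 and those without by 0.29, or by 0.41 and 0.20 without P3. These are descriptions of 2 groups of genes on shared arrays, with no test.

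Beyond the members, 39 of 40 other replication genes were tested. Untreated, 1 was lower and 0 higher (limma; 4 with an unadjusted p under 0.05), with a median of -0.11. The one was Pold4, the small subunit of polymerase delta, with -0.75, -0.87 and -1.31 (mean -0.98, SE 0.19, limma adjusted p = 0.00983); next was Asf1b, a histone chaperone, with -0.34, -0.42 and -0.89 (limma adjusted p = 0.0795). After polyI:C 0 were called (limma; 8 with an unadjusted p under 0.05), the median was -0.34 and 36 of 39 were below 0. Lowest in adjusted p were Dnmt1, which copies DNA methylation at the fork, with -0.50, -0.45 and -0.88 (limma adjusted p = 0.15), and Timeless, a fork protection factor, with -0.50, -0.95 and -0.46 (limma adjusted p = 0.153). All 3 treated samples were below the pool for both. Over all 22535 genes, 9.83% were called lower untreated. With limma 6409 of them had an unadjusted p under 0.05 untreated and 3013 after polyI:C.

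For the difference between treatments 0 of the 39 were called (limma; 5 with an unadjusted p under 0.05), with a median of -0.27, led by Pold4 at 0.96 (limma adjusted p = 0.103) and Timeless at -0.85 (limma adjusted p = 0.124). In Cdk6-/- cells 0 were called for the treatment (limma; 3 with an unadjusted p under 0.05), with a median of 0.11; the lowest adjusted p values were those of Dna2, a nuclease, at 1.04 (limma adjusted p = 0.256) and Dctpp1, a nucleotide pyrophosphatase, at 1.08 (limma adjusted p = 0.262). The median change in the wild-type pools was 0.30. Of all 22535 genes, 3729 had an unadjusted p under 0.05 with limma for the difference and 2320 for the treatment in Cdk6-/- cells.

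Untreated, where 9.83% of all genes were lower, 2 of 11 tested genes for E2F factors and S-phase cyclins and kinases were. They were Cdk2, the kinase of cyclins E and A, with a mean of -0.70 (limma adjusted p = 0.0353), and E2f7, a repressing E2F, with -2.52, -1.56 and -1.70 (mean -1.93, limma adjusted p = 0.00152). After polyI:C, where 0.626% of all genes were lower, only E2f7 was, with -1.62, -0.74 and -1.46 (mean -1.27, limma adjusted p = 0.0416). The list had a median of -0.26 in both treatments.

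Mitosis genes showed another order of treatments. Of 28 tested, 12 were lower untreated with limma, where 9.83% of all genes were, with a median of -0.54. After polyI:C 0 were called, where 0.626% of all genes were lower and 0.32% higher, and the median was -0.21. An unadjusted p under 0.05 was then held by 6 of 28 and by 3013 of all 22535 genes. The median difference was 0.23, against -0.29 for the replication genes; the 2 lists were not tested against each other. With centring on all spots 4 mitosis genes were lower and 1 higher untreated. Under it 6192 of all genes were called in either direction, most of them higher, so that total is no background for the 4.

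Markers of other cells also differed between genotypes untreated, where 9.83% of all genes were lower and 3.03% higher. Lower were 5 of 8 B cell markers (median -1.47), 5 of 6 of stroma (median -1.36), and 3 of 10 granulocyte and 3 of 10 erythroid ones. So were 2 of 13 stem cell, 2 of 6 megakaryocyte, 1 of 8 macrophage and 1 of 8 T and NK cell markers, and 1 megakaryocyte marker was higher. The B cell markers' summed log2 Cy5 level ranged from 14.2 to 14.7 in untreated samples and from 13.5 to 15.2 in treated ones, with Cy3 at 15.2 to 15.3 and 13.8 to 14.7. Stroma markers summed to 12.33 to 12.83 and 11.47 to 11.66 in Cy5, and to 13.73 to 13.86 and 11.53 to 11.70 in Cy3. Well above background in Cy5 were 8 of 8 B cell markers on each untreated array and 3, 7 and 7 on P1 to P3, and 4, 5 and 5 of the 6 stroma markers untreated. The part of these lists in the untreated replication values was not tested.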

How the data were processed

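RNA of 6 samples was amplified by whole transcriptome amplification, labelled with platinum-linked dyes and hybridised to 2-colour arrays, per the labels' protocols; RNA integrity was uneven per those labels. The deposited scanner files, from Feature Extraction, hold median spot and background intensities, used here in place of the spot signals first planned, the authors' processed intensities and their log10 ratio. The deposited value table was found to be a log2 ratio of the processed signals (largest difference 2.52e-06).

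Background was corrected with normexp (offset 50), ratios were normalized by loess within arrays and levels by Aquantile, in R 4.3.3 with limma 3.58.1. Outlier spots (0.657%) were left out. Probes well above background in a channel on all 3 arrays of a group were kept (31798 of 55681), and the brightest stood for its gene. Names came from RefSeq accessions (22244 of 23839 matched).

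One fit of lmFit and eBayes held both groups, with 4 residual degrees of freedom, Benjamini-Hochberg adjustment over 22535 genes and a threshold of 0.05. A single-gene exact permutation test could not go below p = 0.1. Array number limits precision. The code was tested on simulated data. The members, lists and tests were chosen with earlier results of these data known. Named with full statistics were called members and, per role and comparison, the member furthest from 0, and 2 other replication genes of smallest adjusted p per comparison. Alternatives covered scaling, background, filter, probe choice, slide (taken from shared scan times) as a block, and leaving out arrays.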

Additional observations from a re-analysis of the deposited data

How the results depend on the processing

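Leaving out 1 array at a time gave 0 to 6 members called untreated (4 with all arrays), an untreated median of -0.218 to -0.0934, a polyI:C median of -0.457 to -0.322, a median difference of -0.354 to -0.197, a Cdk6-/- change of -0.03 to 0.309 and a wild-type change of 0.330 to 0.523, with 1 to 6 members past 2-fold in the pools. Members below 0 on every polyI:C array numbered 39 to 41 (21.6% to 38.5% of all genes), below the array's median 38 to 40 (18.9% to 34.3%), and with every polyI:C ratio below every untreated one 16 to 22 (8.48% to 18.9%; without P3 19 members and 18.9%); 0 were called after polyI:C in each such fit. Centring on the median of all spots gave 7 members called untreated (all higher, as 21.6% of all genes were), an untreated median of 0.32, 2 called after polyI:C (both higher, as 10.4% of all genes were), a polyI:C median of -0.0500, 9 below 0 on every polyI:C array (7.56% of all genes) and 20 below the array's median (18.9%). With it Gins3 turned from -0.03 to 0.72 untreated. Centring on bright probes gave 2 called after polyI:C (Pole2 lower at -0.89, adjusted p = 0.0384, and Ung higher, as 1.62% and 4.13% of all genes were), 20 below the array's median and 8 with every polyI:C ratio below every untreated one (5.86%). Processed signals left 1 member called untreated, the slide as a random block gave 1 called difference (0 as a fixed block), and 75th percentile scaling gave 5 members past 2-fold in the pools. Without U3 and P3 together, 0 were called untreated, the untreated median was -0.22 and the median difference -0.099; within slide 2 it was -0.059. Ung was 0.34 with processed signals (adjusted p = 0.236). Over all genes, 2898 were called untreated (6192 with centring on all spots), 213 after polyI:C (2576) and 406 for the difference (249); leaving out 1 array gave 1320 to 3377, 7 to 215 and 6 to 377. The causes were not tested. No paired analysis was possible because replicate numbers follow accession order and pair no samples. A wild-type pool is 1 sample, P3 stands apart, Orc1 is dim, and signal over background limits what can be said of Tyms.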
